A study of Bos taurus with 48 samples.

Results

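The comparison described here is that of circulating leukocytes on the first day after housing (d 1) with leukocytes from the same calves before housing (d 0), with weaned and control calves pooled. It used the 24 libraries of these 2 days, from 12 calves paired by animal, out of 48 libraries in the series. The question was which genes changed in the same direction in both treatments within a day of the move indoors. All 12 animals were intact male Simmental beef calves, a Continental breed, born in spring and kept at grass with their dams until housing. All had been immunised against BRSV and IBR before the study, and all were offered grass silage and concentrate once indoors. The 6 control calves were housed together with their dam, whereas the 6 weaned calves were taken from the dam and penned with other weaned calves. Blood for d 0 was drawn while the calves were still outdoors. No group of calves stayed at grass, so the move indoors, the new diet, the handling and repeated sampling, and the passage of a day cannot be told apart. The RNA came from total leukocytes, in which fewer cells of a type and less RNA per cell cannot be told apart.

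Stress hormones released by the adrenal gland and by sympathetic nerves move white cells between blood and tissue, mostly raising circulating neutrophils and lowering lymphocytes. Inside the cells, the first transcriptional answer to many stimuli comes from immediate early genes. Among these, FOS and FOSB encode partners of JUN proteins in the transcription factor AP-1, which in turn acts on genes of inflammation, proliferation and survival. Other leukocyte genes that respond to hormones, lipids or acidity encode membrane transporters and G protein-coupled receptors.

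The 24 libraries held between 2933029 and 4119875 counts, with a median of 3600330, so 3 counts correspond to 0.728 to 1.02 CPM, the unit that expresses counts relative to the size of a library. A gene was tested if its counts summed to at least 10 over the 24 libraries, which kept 14786 of the 25669 genes in the table. Leukocyte genes were present in every library, among them the T cell gene TRAT1 (12.04 to 77.0 CPM), the cytotoxic granule gene GZMA (2.19 to 33.4 CPM) and ALPL, the alkaline phosphatase of neutrophils (23.1 to 261 CPM). The erythroid gene HBB ranged from 0.812 to 37.9 CPM and type I collagen COL1A1 from 0 to 182 CPM. No B cell or plasma cell marker could be identified by name. Gene symbols were at hand for 644 Ensembl identifiers only, and each of those belongs to a gene that the study had itself called in some comparison of these libraries, so counts over lists of named genes are not independent evidence of a direction.

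One calf stood apart from all others. The leading principal component of the 24 libraries, computed on 9152 genes with a mean of at least 10 CPM, carried 58.0% of the variance, and the second carried 6.84%. Along the leading component, measured in log2 units as the root mean square over genes, control calf 1763 moved by -0.818 from d 0 to d 1, while the other 5 control calves moved by between -0.143 and 0.109. Weaned calf 1773 moved by 0.654 in the opposite direction. In calf 1763, 2134 genes (23.3% of 9152) differed at least 2-fold between its libraries, as did 1395 genes (15.2%) in calf 1773, against 0.208 to 3.15% in each of the other 10 calves. The 2 libraries of calf 1763, like those of weaned calf 1809, had been run on different flowcells. Nothing in the files checks which of these 2 libraries was drawn first, and an exchange of them would turn the sign of every change in that calf, which was not tested. Where leaving calf 1763 out turned the sign of a printed change or moved it by over 1.5 times, the value without it is given as well.

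**Figure D1:**
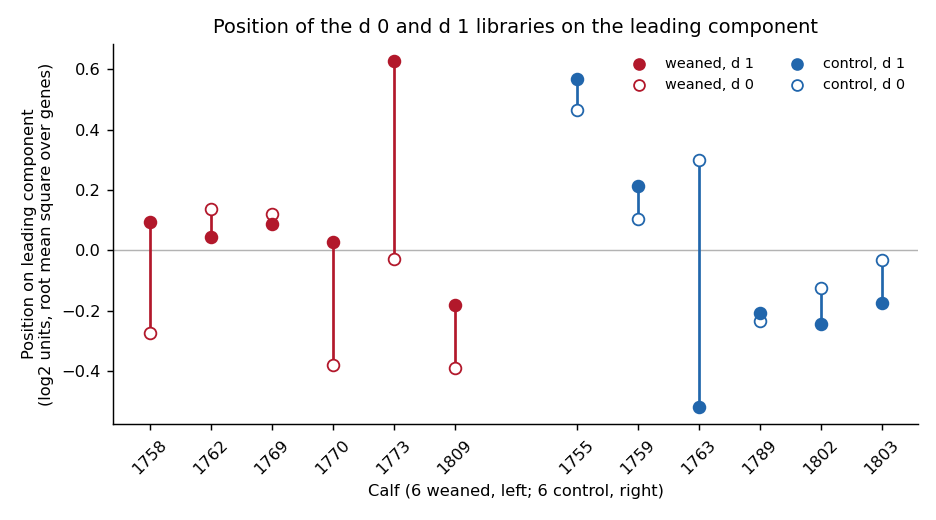
Position of each library on the leading principal component (58.0% of the variance), in log2 units as the root mean square over genes, for each calf. Open circles are d 0 and filled circles d 1, with weaned calves on the left and controls on the right. Control calf 1763 moved by -0.818 and weaned calf 1773 by 0.654, and 7 of the 12 calves moved upwards.

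The component itself did not move in a common direction. It was higher on d 1 in 4 of 6 weaned and in 3 of 6 control calves, by a mean of 0.252 ± 0.283 (SD, n = 6) in the weaned calves and of -0.140 ± 0.349 (SD, n = 6) in the controls. An exact two-sided sign-flip permutation test over the 12 calves gave p = 0.609. The genes at its upper end included FBN1, TLR10, SLC39A10 and CALCRL, and those at its lower end HIC1, COL1A1, ALPL and EPHX2.

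No gene passed an adjusted p of 0.05 in the comparison of d 1 with d 0 over the 12 calves (edgeR quasi-likelihood test with calf as a block and Benjamini-Hochberg adjustment), and the smallest adjusted p was 0.9998. At an unadjusted p below 0.05 there were 357 genes, 2.41% of those tested, of which 224 (1.51%) were higher and 133 (0.899%) lower on d 1. DESeq2 likewise called 0 genes and had 211 genes below an unadjusted 0.05. An exact sign-flip test of each gene over the 12 calves, which assumes no dispersion, gave 461 genes (3.12%) below 0.05, 256 higher and 205 lower. With no change, about 5% of independent genes would lie below that threshold, and the shares were smaller with all 12 calves. Without calf 1763, 2097 of 14724 genes (14.2%) were below it in edgeR. Over the 10 calves with both libraries on 1 flowcell there were 1513 of 14636 (10.3%), so the shares then lay above 5%. Because genes vary together along the leading component, these shares are no measure of chance. Abundant genes were bounded tightly. Of the 9152 genes with a mean of at least 10 CPM, 9139 (99.9%) had a 95% interval of the change that lay wholly within 2-fold of no change, and the median half-width of the interval was 0.211 on the log2 scale. Of the 2474 genes below 1 CPM, only 155 (6.27%) were bounded as tightly.

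The calves did not share a direction genome-wide. The sign of the change in weaned calves matched that in controls for 4236 of 14786 genes (28.6%). In weaned calves alone 2930 genes (19.8%) had an unadjusted p below 0.05, in controls 588 (3.98%), and the difference between treatments did so for 3301 (22.3%). None of these 3 comparisons had a gene below an adjusted 0.05, with smallest adjusted p values of 0.0552, 0.926 and 0.190 (edgeR). Of the 116 genes below an unadjusted 0.05 in both treatments, 109 changed in opposite directions and 7 in the same direction. Without calf 1763 the matching share was 50.0% (7361 of 14724 genes), and of 77 genes below 0.05 in both treatments 48 changed the same way. Over the remaining calves pooled, 0 genes were below an adjusted 0.05 (smallest 0.245, edgeR). In the edgeR fit by treatment without calf 1763, 83 genes were below it in weaned calves (smallest 0.0033), 0 in controls and 0 for the difference. The mean of both treatments in that fit had 3 (smallest 0.0496). The weaned count below an unadjusted 0.05 also depended on calf 1773. On leaving out each calf it ranged from 821 of 14660 genes (without calf 1773) to 4619 of 14724 (without calf 1763). The count for the treatment difference ranged from 1745 of 14660 (without calf 1773) to 4600 of 14714 (without calf 1762).

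**Figure D2:**
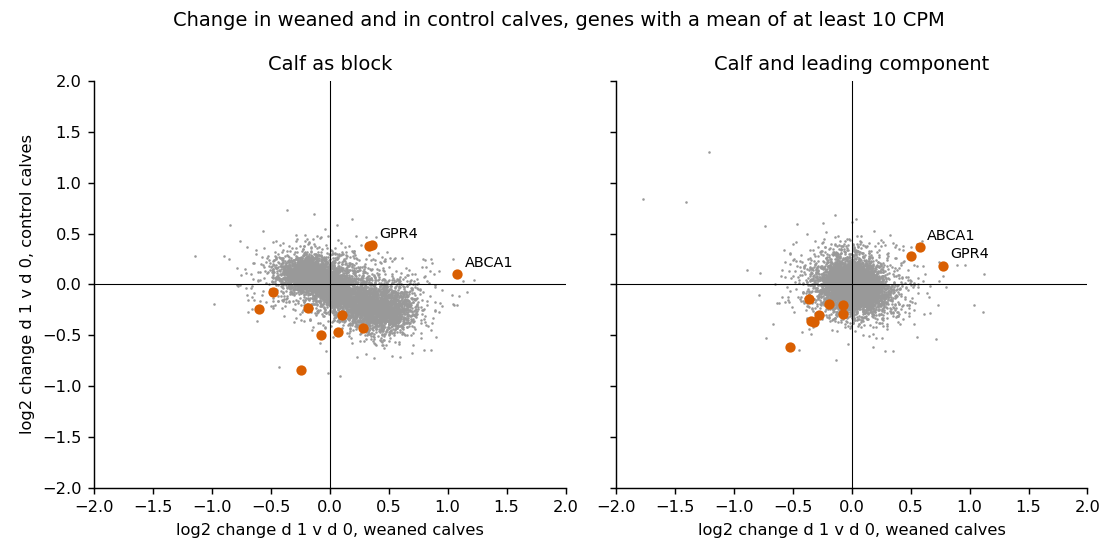
Change on d 1 in weaned calves against change in control calves (log2, 1 point for each of 9152 genes with a mean of at least 10 CPM), without and with the leading component as a covariate. The points run from upper left to lower right without it (r = -0.66 across genes, which are not independent replicates) and form a rounder cloud with it (r = -0.15).

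The change profiles of single calves, compared over 9152 genes, showed the same heterogeneity. The profile of calf 1773 correlated with that of calf 1763 at r = -0.914 and with that of weaned calf 1770 at 0.848. Within the weaned group r ranged from -0.360 to 0.848 with a median of -0.059, within controls from -0.419 to 0.466 with a median of -0.069, and between treatments from -0.914 to 0.448 with a median of 0.048. These coefficients are across genes, which share libraries and depth, and serve as a description.

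**Figure D3:**
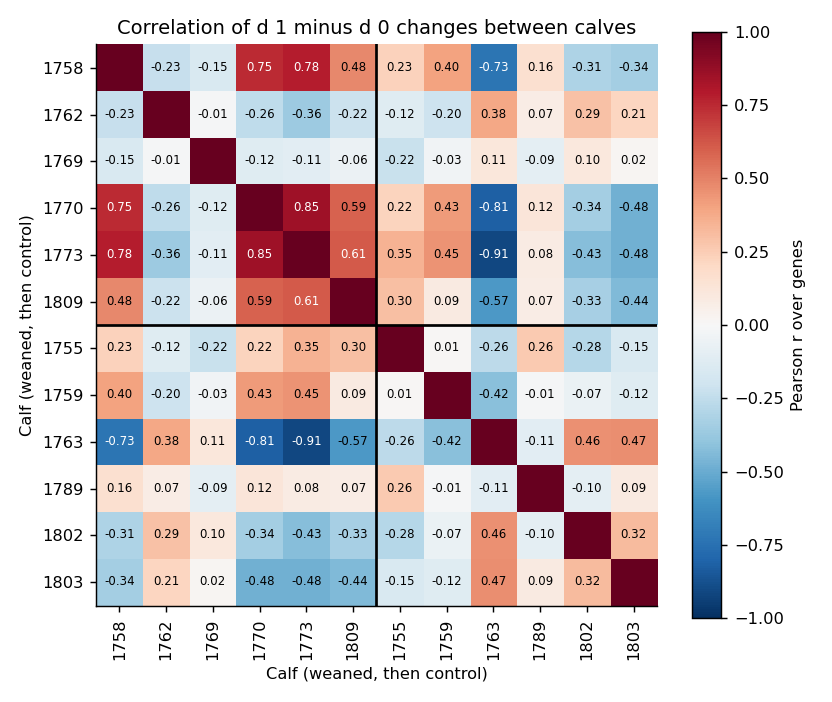
Pearson correlation (colour, from -1 to 1) between the d 1 minus d 0 changes of each pair of calves, over 9152 genes, with weaned and control calves grouped. No block of uniformly positive correlation spans the 12 calves, and the row of calf 1763 is strongly negative against calf 1773 (r = -0.914).

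A gene that moves the same way in each animal is the plainest form of a shared response. Exactly 4 of the 14786 genes (0.0271%) had the same direction in 12 of 12 calves, all 4 higher on d 1, and 78 (0.528%) had it in at least 11, of which 46 were higher and 32 lower. The exact test cannot go below 0.000488 over 12 calves, and these 4 genes reached that value, which became 1 after Benjamini-Hochberg adjustment over all genes. Random signs would place all 12 calves on 1 side with the same probability of 0.000488. Since genes vary together, the share of 0.0271% is no measure of chance either. The chance share for at least 11 calves was not computed.

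FOS and FOSB were the members of the immediate early list that could be identified, 2 of 28, and both were higher on d 1 in most calves of both treatments. FOS in weaned calves went from 67.5 CPM (lowest), 102 (median) and 172 (highest) on d 0 to 109, 162 and 266 on d 1, and was higher in 6 of 6. In controls the corresponding values were 59.2, 100.9 and 217 on d 0 and 52.3, 128 and 263 on d 1, and it was higher in 4 of 6. The ranges of the days overlapped in both treatments, and the control calves in which FOS was lower were 1763 and 1789. Over 12 calves the change was 0.44 ± 0.12 on the log2 scale (SE; unadjusted p = 0.00213, adjusted p = 0.9998, edgeR), 0.61 ± 0.16 in weaned and 0.26 ± 0.16 in control calves, and the exact sign-flip test gave p = 0.0132. The difference between treatments had an unadjusted p of 0.141.

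FOSB followed the same course at a lower level. In weaned calves it ranged from 18.5 to 37.0 CPM on d 0, with a median of 25.9, and from 30.5 to 64.2 on d 1, with a median of 47.6. In controls it ranged from 17.4 to 29.6 CPM (median 24.5) on d 0 and from 19.1 to 48.5 (median 28.2) on d 1. It was higher on d 1 in 11 of 12 calves, the exception being control calf 1789, in which FOS was lower as well. The change was 0.56 ± 0.16 log2 over 12 calves (SE; unadjusted p = 0.00209, adjusted p = 0.9998, edgeR; exact p = 0.00928), with 0.86 in weaned and 0.25 in control calves. The treatment difference had an unadjusted p of 0.0385 and an adjusted p of 0.21. Without calf 1763 the changes of FOS and FOSB were 0.48 and 0.51 over all calves, and 0.34 and 0.09 in controls.

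ABCA1, which exports cholesterol from cells, was higher on d 1 in 11 of 12 calves. The weaned groups did not overlap between days, with 45.1 to 75.0 CPM on d 0 (median 67.2) and 88.8 to 228 CPM on d 1 (median 114). In controls the range was 57.8 to 125 CPM on d 0 (median 91.7) and 47.8 to 168 on d 1 (median 90.4). Calf 1763 was the single exception, with a change of -1.23 log2, while the other 5 controls changed by 0.24 to 0.43. Over 12 calves the change was 0.59 ± 0.20 (SE; unadjusted p = 0.00901, edgeR; exact p = 0.0386), and without calf 1763 it was 0.74 with an unadjusted p of 6.22e-05. The change was 1.08 ± 0.23 in weaned and 0.10 ± 0.22 in control calves (0.36 without calf 1763), a difference with an unadjusted p of 0.00626 and an adjusted p of 0.2 (edgeR).

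GPR4, a receptor that senses extracellular protons, was also higher in 11 of 12 calves. Its medians went from 36.7 to 46.4 CPM in weaned and from 33.3 to 52.5 CPM in control calves, and the ranges of both days overlapped in each treatment. The change was 0.37 ± 0.15 log2 (SE; unadjusted p = 0.0215, edgeR; exact p = 0.019), at 0.36 in weaned and 0.39 in control calves. The control value rested on calf 1763, with 1.88 against -0.35 to 0.39 in the other controls. Without that calf the change was 0.24 over all calves and 0.12 in controls.

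**Figure D4:**
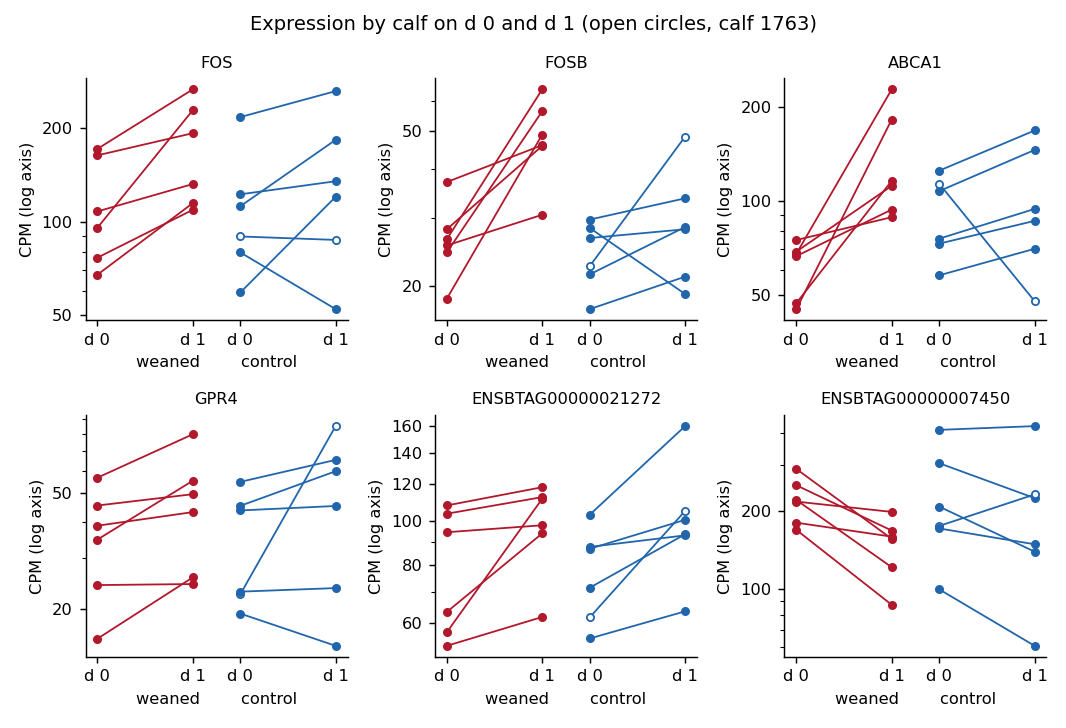
Level of selected genes in each calf at d 0 and d 1 (CPM, log axis), with a line joining the libraries of a calf and weaned and control calves in separate colours. Open circles mark calf 1763. The lines slope upwards in 10 of 12 calves for FOS and in 11 of 12 for FOSB, ABCA1 and GPR4.

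Of the genes without a symbol, values are given for 2 that were higher and 2 that were lower on d 1. ENSBTAG00000021272 was higher in 12 of 12 calves, from 53.6 to 108 CPM (median 78.9) on d 0 to 61.9 to 118 (median 105) on d 1 in weaned calves, and from 55.6 to 103 (median 79.2) to 63.6 to 160 (median 96.9) in controls. Its change was 0.36 ± 0.09 log2 (SE; unadjusted p = 0.000707, edgeR), with 0.33 in weaned and 0.38 in control calves. ENSBTAG00000014692 was higher in 12 of 12 calves as well, at 1.48 to 6.13 CPM on d 0 and 2.93 to 8.21 CPM on d 1, a change of 0.66 ± 0.14 (unadjusted p = 0.000216), with 0.73 in weaned and 0.58 in control calves. In the other direction, ENSBTAG00000007450 was lower in 10 of 12 calves, with medians of 219 and 158 CPM in weaned and 192 and 187 CPM in control calves and a change of -0.42 ± 0.10 (unadjusted p = 0.000837), at -0.60 in weaned and -0.24 in control calves. ENSBTAG00000019741 was lower in 10 of 12 calves too, with medians of 13.8 and 9.70 CPM in weaned and 35.8 and 16.5 CPM in control calves and a change of -0.56 ± 0.16 (unadjusted p = 0.00245), at -0.25 in weaned and -0.84 in control calves. These 2 lower genes did not have an unadjusted p below 0.05 in each treatment (edgeR). For ENSBTAG00000007450 it was 0.0906 in controls, and for ENSBTAG00000019741 0.236 in weaned calves. ENSBTAG00000004303, ENSBTAG00000018294, ENSBTAG00000002923 and ENSBTAG00000005498 were below 0.05 in each treatment, all lower on d 1 in both.

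When the position of each library on the leading component entered the fit beside calf, an alternative chosen after the data were seen, 11 genes (0.0744%) passed an adjusted p of 0.05 in edgeR, 3 higher and 8 lower on d 1. In that fit all 11 had the same direction in weaned and control calves, as 8 of the 11 did without the covariate, and none changed 2-fold, with sizes from 0.147 to 0.579 log2. ABCA1 rose by 0.46 ± 0.06 (SE; adjusted p = 0.00153), by 0.58 in weaned and 0.37 in control calves. GPR4 rose by 0.46 (adjusted p = 0.039), by 0.77 in weaned and 0.19 in control calves, and ENSBTAG00000021272 by 0.38 (adjusted p = 0.0034). ENSBTAG00000007450 fell by 0.36 (adjusted p = 0.00153) and ENSBTAG00000019741 fell by 0.58 (adjusted p = 0.011). FOS and FOSB did not pass, with changes of 0.40 (adjusted p = 0.0664) and 0.56 (adjusted p = 0.0749). The component was itself estimated from these libraries, so this fit is not an independent test.

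Among other named genes with a low unadjusted p, all of which had an adjusted p of 0.9998 (edgeR), SLC22A7, an organic anion transporter, had the same sign in both treatments. Its medians were 1.57 and 2.91 CPM on d 0 and d 1 in weaned and 2.12 and 3.14 CPM in control calves, a change of 0.82 ± 0.23 log2 (SE; exact p = 0.00635, higher in 9 of 12 calves). SLC5A7, the choline transporter, changed by 0.93 ± 0.34, with medians between 0.901 and 1.73 CPM. YES1, a Src family kinase, had 11 of 12 calves higher and a change of 1.16 ± 0.34, with medians between 0.502 and 1.81 CPM. The medians of YES1 and SLC5A7 lay partly below or within the 0.728 to 1.02 CPM that 3 counts give.

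The genes lower on d 1 in both treatments included enzymes and a chaperone. HSPA6, an inducible heat shock protein of the HSP70 family, was lower in 11 of 12 calves, with medians of 4.61 and 3.12 CPM in weaned and 4.48 and 2.91 CPM in control calves. Its change was -0.59 ± 0.19 log2 (SE; exact p = 0.00439), at -0.61 in weaned and -0.57 in control calves. EPHX2, the soluble epoxide hydrolase that degrades fatty acid epoxides, was lower in 10 of 12 calves, a change of -0.50 ± 0.16 (exact p = 0.00342). Its medians were 8.23 and 5.76 CPM in weaned calves, all 6 of them lower on d 1, and 8.12 and 8.37 CPM in controls, of which 4 were lower. GRIK3, a kainate receptor subunit, had 32 counts on d 0 and 9 on d 1 over all calves, a ratio of 0.275 after scaling to library size (95% interval 0.116 to 0.590, counting error only), and was lower in 11 of 12 calves. PTGDS, a prostaglandin D synthase, had 18 counts and 4 counts, a ratio of 0.218.

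Several low-count genes rested in part on weaned calf 1769. PLAT, the tissue-type plasminogen activator, had 13 counts on d 0 and 40 on d 1, a ratio of 3.01 (95% interval 1.58 to 6.14), and was higher in 10 calves and lower in 1. Of its d 1 counts 13 came from calf 1769, and without that calf the counts were 12 and 27, a ratio of 2.18 (1.07 to 4.71). PLAT was higher on d 1 in both treatments, with an unadjusted p of 0.0329 in weaned and 0.0417 in control calves (edgeR). CXCL5, a neutrophil chemoattractant, had 8 counts and 39 counts, of which 21 came from the d 1 library of calf 1769, and the ratio of 4.77 (2.20 to 11.8) became 2.90 (1.10 to 8.93) without it. CCL2, a monocyte chemoattractant, had 6 and 23 counts, 10 of the latter from that library, and its ratio went from 3.75 (1.49 to 11.3) to 2.51 (0.841 to 9.01). The same d 1 library held 113 of the 189 d 1 counts of the platelet gene PPBP and 174 of the 475 of SELP, and 143 of the 429 of HBB and 111 of the 204 of ALAS2, both erythroid. The part of these cells in the values of PLAT, CXCL5 and CCL2 was not tested.

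Genes of retinoid and folate handling depended on the same animal in the other direction. ALDH1A1, which makes retinoic acid, changed by -1.11 ± 0.50 log2 (SE), but 132 of its 234 counts came from the d 0 library of calf 1769, and without that calf the change was -0.45 with an unadjusted p of 0.328. Of the 32 counts of the folate receptor FOLR1 (ENSBTAG00000021007) on d 0, 28 came from that library, against 3 counts in all on d 1. A second FOLR1 entry (ENSBTAG00000038532) had 153 counts on d 0, of which 116 came from that library, and 47 on d 1. It changed by -0.91 with calf 1769 and -0.29 without that calf. ID1, an inhibitor of helix-loop-helix transcription factors, changed by -0.71 with it and -0.47 without it. ADM, the vasodilator adrenomedullin, had 161 counts in the same library and changed by -0.78 with the calf and 0.12 without it. The d 0 library of calf 1769 also held 31 of the 41 d 0 counts of MARCO, a macrophage scavenger receptor and the only monocyte marker identified, and its d 1 library 2 of 10. The part of such cells in the values of ALDH1A1, FOLR1 and ADM was not tested. GFPT2, which feeds the hexosamine pathway, changed by 1.09 ± 0.37 with it and 0.71 without it.

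Other genes had a change in weaned calves that controls did not share in size or sign. THBS1, the platelet adhesion protein thrombospondin, changed by 0.90 in weaned and -0.01 in control calves, and its unadjusted p for the difference was 0.0037. IL5RA, the interleukin 5 receptor of eosinophils, changed by 1.04 and -0.19, RGS2, a regulator of G protein signalling, by 1.06 and 0.03, and CALCRL, the receptor for ADM, by 0.93 and -0.18. Without calf 1763 the control changes of these genes were 0.12 for THBS1, -0.31 for IL5RA, 0.08 for RGS2 and 0.08 for CALCRL. HIC1, a transcriptional repressor, changed by -1.14 in weaned and 0.28 in control calves, 0.16 without calf 1763 (unadjusted p = 2.57e-05 for the difference, adjusted p = 0.19, edgeR). POLE2, a subunit of a replicative DNA polymerase, was higher in 6 of 6 weaned and lower in 6 of 6 control calves, by 1.23 and -0.98 (unadjusted p = 0.00043, adjusted p = 0.2). None of these differences passed the adjusted threshold.

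By gene list, the counts in the comparison over 12 calves stand beside 7633 genes higher and 7153 lower of all 14786 tested, with a median of 0.01 log2. The median of the 2 immediate early genes was 0.50. Of all genes tested 2.41% had an unadjusted p below 0.05, and 28.6% shared a sign in both treatments, 50.0% without calf 1763. Of 15 solute carriers 12 were higher and 3 lower (median 0.40), and 2 had an unadjusted p below 0.05. In controls alone 5 were higher and 10 lower (median -0.24), or 8 and 7 without calf 1763 (median 0.11), and 4 of the 15 shared a sign in both treatments, 5 without that calf. Of 13 genes of collagen, coagulation and fibrinolysis 11 were higher and 2 lower (median 0.42), again with 2 below 0.05. In controls 7 were higher and 6 lower (median 0.03), or 9 and 4 without calf 1763 (median 0.39), and 3 of the 13 shared a sign, 5 without that calf. For type I collagen there were 6 calves higher and 6 lower, for both COL1A1 (-0.37 ± 0.80) and COL1A2 (-0.19 ± 0.84), and both signs turned when calves 1763 and 1809 were left out (0.39 and 0.49). With calf 1763 alone left out they were -0.13 and -0.05. The 15 inflammatory cytokines and chemokines were split into 7 higher and 8 lower with a median of -0.01, and 2 of those higher and 0 of those lower were below 0.05. Without calf 1763 they were 9 higher and 6 lower, with a median of 0.12. IL8, the neutrophil chemoattractant CXCL8, changed by 0.70 ± 0.53, with 5 calves higher and 7 lower, and its sign turned to -0.51 with the leading component in the fit. All 4 Toll-like receptor signalling genes were higher over 12 calves (median 0.19), by 0.31 for TLR10 and 0.19 for the kinase MAP3K7, and none had an unadjusted p below 0.05. The treatments were opposite, with all 4 higher in weaned (median 0.69) and all 4 lower in control calves (median -0.28). Without calf 1763 the changes over all calves were 0.49 for TLR10 and 0.34 for MAP3K7, 2 of the 4 genes were higher in controls, and 2 had an unadjusted p below 0.05 over all calves. The list medians without that calf were 0.34 over all calves and -0.0024 in controls.

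Other lists held few identified members. Of 6 stress hormone receptors 2 were higher and 4 lower, of 6 cytokine and chemokine receptors 4 were higher and 2 lower, and of 5 cell cycle genes 3 were higher and 2 lower. CENPE, a mitotic motor protein, changed by 0.43 ± 0.20, at 0.86 in weaned and 0.02 in control calves (0.21 in controls without calf 1763). The heat shock gene HSPH1 changed by 0.01 and the viral RNA sensor DDX58 by -0.11, with 6 calves higher and 6 lower for both, and by 0.17 and 0.0049 without calf 1763. HSPH1 changed by 0.48 in weaned and -0.46 in control calves, and DDX58 by 0.22 and -0.44. In controls without calf 1763 the changes were -0.18 for HSPH1 and -0.23 for DDX58. None of the members of the glucocorticoid response list or of the circadian list could be identified by name, so these were not analysed here.

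The few cell type markers that could be identified did not shift in a common direction. They were 2 of 22 for neutrophils, 1 of 21 for T cells, 1 of 18 for monocytes and 6 of 18 for platelets, so they do not measure cell composition. In the study's own blood counts, weaned calves had a higher neutrophil percentage and a lower lymphocyte percentage and platelet number on d 1. Control calves did not differ from baseline in these on d 1. The blood counts took in calves of the study beyond the 12 sequenced. Of the 10 marker lists with at least 1 gene, 0 had the mean level of its genes move the same way in 10 or more of 12 calves. ALPL changed by 0.08 and PGLYRP1, an antibacterial granule protein of neutrophils, by 0.18, with 6 and 7 calves higher. GZMA changed by -0.44, TRAT1 by 0.20, MS4A2, the mast cell and basophil IgE receptor subunit, by 0.39, and the platelet receptor P2RY12 by 0.43, all with an adjusted p of 0.9998 (edgeR). Without calf 1763 the changes were 0.36 for TRAT1, -0.27 for GZMA and 0.11 for PGLYRP1. TRAT1 changed by 0.52 in weaned and -0.13 in control calves, and by 0.20 in controls without calf 1763. GZMA changed by 0.08 in weaned and -0.90 in control calves. In weaned calves the mean level of the 6 eosinophil and basophil genes was higher on d 1 in 6 of 6 animals, as were FOS, FOSB and ABCA1, while in controls it was higher in 2 of 6. The part of cell composition in the changes of FOS, FOSB and ABCA1 was not tested.

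The study had listed 43 genes for d 1 against d 0 in either treatment in its pathways of cytokines, membrane transport, haemostasis and G protein-coupled receptors, and 39 of them were identified and tested here. Over 12 calves 28 were higher and 11 lower, and 7 had an unadjusted p below 0.05, 5 higher and 2 lower, where the share over all genes tested was 2.41%. The same sign in weaned and control calves was found for 12 of the 39, where the share over all genes tested was 28.6%. Of the 39 genes 14 had fewer than 50 counts over the 24 libraries. Since these genes were chosen on the same libraries, the counts are a description.

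Set beside the later days, d 1 had the fewest genes below an unadjusted 0.05 with all 12 calves. Without calf 1763 the d 1 share was 14.2% in the fit of 24 libraries, and the days were not compared without that calf. In a fit over all 48 libraries, in which the d 1, d 2 and d 7 comparisons share the d 0 libraries, 486 of 15532 genes (3.13%) were below it on d 2 and 1281 (8.25%) on d 7, against 327 on d 1. No gene passed an adjusted 0.05 on d 1 or d 2 and 9 genes did on d 7, all higher, FOS and FOSB among them. FOS changed by 0.56 ± 0.16 on d 2 and rose by 0.80 ± 0.16 on d 7 (adjusted p = 0.041, edgeR). FOSB changed by 0.56 ± 0.23 on d 2 and rose by 1.13 ± 0.23 on d 7 (adjusted p = 0.041). ABCA1 changed by 0.37 on d 2 and 0.07 on d 7, ENSBTAG00000021272 by 0.43 and 0.39, and ENSBTAG00000019741 by -1.04 and -0.98.

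**Figure D5:**
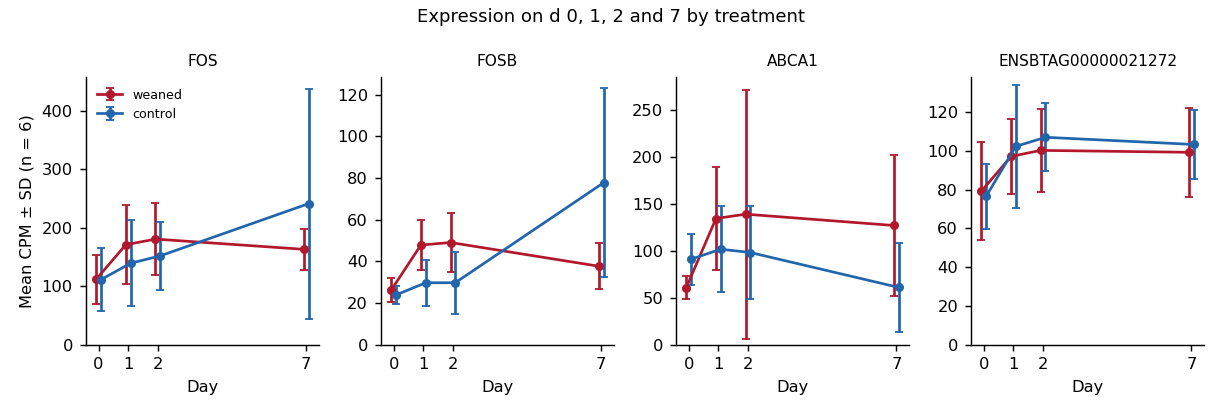
Mean level (CPM, with SD as bars, n = 6 a group) on d 0, d 1, d 2 and d 7 in weaned and control calves, scaled over all 48 libraries. The means of FOS and FOSB on d 7 are highest in controls, at 241 ± 197 and 77.8 ± 45.2 CPM, and ABCA1 in controls is at 61.01 ± 46.9 CPM on d 7.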

How the data were processed

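Total leukocyte RNA was sequenced as 36 bp single-end reads. Per the labels' processing notes, the authors used CASAVA 1.6, FastQC 0.9.1, Bowtie 0.12.7, HTSeq 0.4.6p2 and edgeR 1.6.12. Reads were aligned to the Btau4.0 bovine genome without mismatches, reads with several alignments were suppressed, only 1 read was kept for each genomic position, and reads were counted over Ensembl genes. Keeping 1 read per position compresses the counts of short and abundant genes, and reads of near-identical copies were lost. Whether the counting used strand is not given in the sources used here, so overlapping genes on opposite strands are uncertain. The deposited values are raw counts per gene, which the authors did not normalise, and no column of the table was left unmapped (0).

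The 24 libraries of d 0 and d 1 were fitted with edgeR 4.0.16 in R 4.3.3 (TMM scaling, quasi-likelihood F-test, calf as a block, Benjamini-Hochberg adjustment over all genes with at least 10 counts). A second fit gave the change within each treatment and their difference, and another fit covered all 48 libraries. Single genes were tested by exact two-sided sign-flip permutation of the within-calf difference of log2(CPM + 1), which cannot go below 0.03125 with 6 calves. CPM are TMM-scaled, ± gives the SE of a log2 change or the SD as named, and count ratios carry exact 95% intervals for counting error only. Where every library of a day held at most 3 counts, no log2 change is printed. The labels identify each calf, so libraries were paired by animal. The p-values measure the spread between calves of the d 1 minus d 0 change. In the comparison over 12 calves that spread includes any difference between treatments. The deviations of the paired libraries correlated above 0.1 in 11 of 12 calves (from -0.626 in calf 1763 to 0.898, median 0.644). Of the 24 libraries 17 correlated best with the other library of the same calf, and neither library of calf 1763 did. Whether both libraries of calf 1763 came from that animal was not tested. The fit was tested on simulated data.

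Gene lists, named genes and the comparison itself were chosen with earlier results of these data known. Genes were named by their p in the fit, by list (the 2 members with the smallest p), by the study's d 1 pathway lists and by the treatment difference. No gene was called, so the first part of that rule named none. YES1, HSPA6, EPHX2, GFPT2, GRIK3, PTGDS, GPR4, ABCA1, ID1 and RGS2 were picked with their values in view. So were the second FOLR1 entry, the genes given by identifier alone and those at the ends of the component. The symbols are those of the study's bovine to human pairs. Gene coordinates, sequences and promoter motifs were not analysed here. Alternatives were DESeq2 1.42.0, RLE scaling, other filters, a robust fit, no block, only the 10 calves with both libraries on 1 flowcell, a covariate for the proportion of aligned reads that survived duplicate removal, and each calf left out in turn. The leading component as a covariate, the mean of both treatments, a common-dispersion exact test and the list counts without calf 1763 were chosen after seeing the data. The log pseudocount was also set to 0.5 and 2.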

Additional observations from a re-analysis of the deposited data

Results flagged for a closer look

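Among 80 groups of 6 calves examined, the changes of 8 held a calf far from the other 5. Chance gives about 1 in 20 for independent groups. These groups share the same calves and include genes picked with their values in view, so that rate is no measure of chance here. Control calf 1763 was that calf for ABCA1 (-1.23 log2, the others 0.24 to 0.43), GPR4 (1.88, the others -0.35 to 0.39), TLR10 (-2.13, the others -0.09 to 0.66), TRAT1 (-1.74, the others -0.34 to 0.48) and the leading component (-0.818, the others -0.143 to 0.109). Weaned calf 1769 was that calf for ADM (-3.91, the others -0.31 to 0.54) and for AGPAT9, a glycerolipid acyltransferase (-0.079, the others 0.80 to 0.99). Weaned calf 1809 was that calf for COL1A1 (-7.17, the others -1.64 to 1.24).

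POLE2 was higher on d 1 in 6 of 6 weaned and lower in 6 of 6 control calves, with a difference in mean change of 1.71 on the log2(CPM + 1) scale. The treatment difference of POLE2 had an adjusted p of 0.2 in edgeR.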

How the results depend on the processing

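The comparison over 12 calves called 0 genes under each alternative except the leading component as a covariate (11 genes, all 11 the same way in both treatments) and a common-dispersion exact test without a replicate block (10 genes, 8 of them at least 2-fold). Without the replicate block by calf, 0 genes were called and 193 instead of 357 were below an unadjusted 0.05, and leaving out each calf gave 250 to 2097, the highest without calf 1763. The mean of both treatments as the contrast called 0 genes, 33 with the component, 6 with the kept read share, 3 without calf 1763 and 1 over the calves with both libraries on 1 flowcell. Genes below 0.05 in both treatments with the same sign numbered 5 to 48 on leaving out each calf, 48 without calf 1763. In weaned calves alone 0 genes became 26 with DESeq2, 9 without a filter, 18 over calves on 1 flowcell, 5 with the kept read share, 25 with the component, 2 in separate fits, and 0 to 83 on leaving out each calf, with 7 without calf 1762 and 83 without calf 1763. In control calves 0 became 7 with the component. The treatment difference had 0 genes, 8 with DESeq2, and 0 to 1 on leaving out each calf, the 1 without calf 1769. The causes were not tested. Of 890 values of the 39 named genes under alternatives, 857 kept their direction and side of the threshold, 8 passed it and 25, in 8 genes, changed sign. IL8 became -0.036 with the kept read share and -0.51 with the component, HSPH1 -0.086 and -0.15, and POLE2 -0.077 with the component. Over calves on 1 flowcell COL1A1 became 0.39, COL1A2 0.49 and ALPL -0.0206. On leaving out each calf ADM ranged from -1.06 to 0.12, COL1A1 from -0.81 to 0.077, COL1A2 from -0.65 to 0.28, POLE2 from -0.059 to 0.30, ALPL from -0.063 to 0.20, HSPH1 from -0.12 to 0.17 and DDX58 from -0.20 to 0.0049. Below 1 CPM the depth left changes of 2-fold undetectable for most genes.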
